A study of Homo sapiens with 8 samples.

Results

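The 9 genes INSM1, NEUROD1, NEUROG3, POU3F2, PROX1, FOXA2, NKX2-1, ISL1 and ONECUT2 encode transcription factors of neuroendocrine and neuronal lineages, and were followed across all conditions of the experiment. They were taken by gene name from the 78691 rows of the gene count table, and all 9 were found. C4-2B, a prostate adenocarcinoma cell line, carried either an empty lentiviral vector (C4-2B control) or a lentiviral vector for MYCL, a member of the MYC family (C4-2B MYCL). NCI-H660, a neuroendocrine prostate cancer cell line, carried either a non-targeting shRNA (H660 shControl) or shRNA against MYCL (H660 shMYCL). The series' design text names an adenoviral vector for the shRNA, while the treatment label speaks of collection once knockdown was stable. Each of the 4 conditions had 2 libraries, 8 in all. Per the study's methods, an EF1A promoter drove MYCL together with EGFP in the lentiviral vector, and transduced cells were selected with puromycin or sorted. The methods describe an adenoviral vector with 3 shRNAs for transient knockdown and a lentiviral shRNA for stable knockdown, and which of them these libraries carried is unclear. Each condition comes from 1 cell line, and the labels call only the C4-2B control replicates biological and name separate cultures for none, so p-values measure only the spread between these libraries, which may be technical.

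Neuroendocrine cells are specified by layered transcription factors. Basic helix-loop-helix (bHLH) proteins such as NEUROG3 and NEUROD1 pair with widely expressed E proteins and bind E-box motifs to start endocrine and neuronal differentiation, INSM1 acts alongside them as a zinc-finger repressor, and homeodomain and forkhead factors set regional identity. Several of these genes are used as markers of neuroendocrine prostate cancer, in which luminal features are lost.

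MYCL itself was checked first. Its counts were 371 and 320 in the C4-2B control libraries and 65524 and 70253 in the C4-2B MYCL libraries, a log2 fold change of 8.26 (SE 0.12). They were 1863 and 1602 in H660 shControl and 165 and 198 in H660 shMYCL, a log2 fold change of -3.06 (SE 0.15). MYCL therefore moved as labelled in every library. The lines also carried the markers of their labels. The summed level of 8 luminal prostate markers was 2493 to 2501 TPM (the authors' level corrected for gene length and library size) in C4-2B control, 1554 to 1695 TPM in C4-2B MYCL and 3.64 to 4.16 TPM in NCI-H660, where KLK2, KLK3 and FOLH1 had 0 counts. KLK3 was the largest part of the C4-2B luminal sums (mean 1262 TPM in C4-2B control, 788 TPM in C4-2B MYCL). TMPRSS2 alone among the luminal markers had a higher mean in C4-2B MYCL (120.8 against 144.1 TPM). The summed level of 8 neuroendocrine markers was 6.94 to 7.35 TPM in C4-2B and 650.5 to 783.2 TPM in NCI-H660. Most of the C4-2B sum came from DLL3 (mean 5.97 TPM in C4-2B control, 6.38 TPM in C4-2B MYCL). Libraries held 15177071 to 32344170 counts.

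Most of the factors were measured in NCI-H660 alone. In H660 shControl, 7 of the 9 genes had a mean level above 3 TPM, and NEUROD1 and ISL1 were at or near 0. In C4-2B control, ONECUT2 alone among the 9 was measured above 0.1 TPM. This was read from levels, since genes that pass the filter on low counts only through NCI-H660 had to differ. Among all 19605 genes tested in the fit of all conditions, 36.5% were called higher in H660 shControl than in C4-2B control. The lines and their vectors differ together and cannot be told apart in this comparison.

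**Figure D1:**
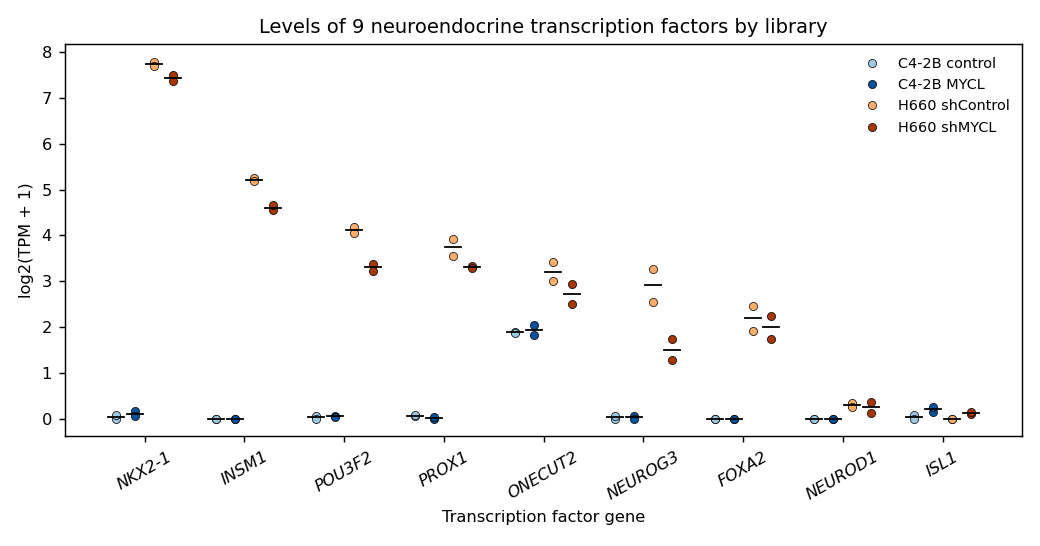
Level of each factor in each of the 8 libraries, on the vertical axis as log2(TPM + 1), with genes on the horizontal axis in the order of their mean level in H660 shControl. Points are libraries and black lines are the means of 2 libraries; ONECUT2 is the only factor with C4-2B points well above 0, and NEUROD1 and ISL1 stay close to 0 in every condition.

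NKX2-1, the homeodomain factor of thyroid and lung also known as TTF-1, had the highest level of the 9 in NCI-H660, with 220.2 and 205.5 TPM in H660 shControl (mean 212.8 ± 10.4, SD, n = 2). INSM1 followed at 37.14 and 35.36 TPM. POU3F2, the neuronal POU-domain factor BRN2, came next at 17.07 and 15.56 TPM, and PROX1, a homeodomain factor of lymphatic, neural and endocrine development, had 14.21 and 10.77 TPM. These 4 levels did not overlap with their neighbours in the order. ONECUT2, a cut-homeodomain factor of liver, pancreas and neurons, had 9.64 and 7.05 TPM, which overlapped with NEUROG3 at 8.61 and 4.85 TPM. FOXA2, a forkhead pioneer factor of endoderm, was lower at 2.76 and 4.5 TPM. The order at the top was the same in H660 shMYCL, except that PROX1 (8.91 ± 0.22 TPM, SD, n = 2) and POU3F2 (8.90 ± 0.74 TPM, SD, n = 2) could not be ordered. Lower in the order, FOXA2 (2.34 and 3.74 TPM) lay above NEUROG3 (1.41 and 2.32 TPM) in H660 shMYCL.

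In C4-2B the same genes were mostly without reads. INSM1 and FOXA2 had 0 counts in all 4 C4-2B libraries, where up to 3 counts per library cannot be told from 0. Against that floor INSM1 was at least 476-fold higher in H660 shControl than in C4-2B control, and FOXA2 at least 42.1-fold higher. For the genes with a few C4-2B counts, the ratio of summed counts per effective library size was 6680 for NKX2-1 (95% interval 1850 to 55200), 702 for PROX1 (274 to 2580), 472 for POU3F2 (202 to 1460) and 284 for NEUROG3 (50.5 to 1.13e+04). These intervals cover counting error only. The C4-2B control counts were 0 and 2 for NKX2-1, 1 and 3 for PROX1, 5 and 0 for POU3F2 and 0 and 1 for NEUROG3. As these lie at or near the floor, the sizes of the ratios are not fixed. They cannot be ordered against the bounds for INSM1 and FOXA2, which were set against the floor. ONECUT2 was the only factor with enough counts in both lines for a fold change between them. It had 1224 and 871 counts in C4-2B control and 1599 and 1354 in H660 shControl, and was higher in H660 shControl by 1.01 on the log2 scale (SE 0.16, adjusted p = 4.88e-05, edgeR's quasi-likelihood test).

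MYCL knockdown in NCI-H660 addressed whether these factors change when MYCL is lowered. NEUROG3, POU3F2, INSM1, ONECUT2 and PROX1 fell. NKX2-1 was lower by less than the fold minimum, and FOXA2 did not pass the test. Called genes had an adjusted p under 0.05 and a log2 fold change of at least 0.5 in size. Of the 9 genes, 7 had enough counts to be tested, 5 were called lower and 0 higher. Over all 16980 genes tested, 8.99% were called lower and 7.18% higher. By unadjusted p under 0.05, 6 of the 7 were lower and 0 higher, and no share of all genes at that threshold is given. DESeq2 called 4 lower and 0 higher, and 2060 of all 16980 genes in either direction. On log2(TPM + 1), limma called 3 lower and 0 higher, and its count over all genes is given below with the alternatives. The median log2 fold change was -0.56 over the 7 factors and -0.003 over all genes tested. The study chose INSM1, POU3F2 and NEUROG3 for a display of these same samples, so their direction here is not independent evidence. The study also reported lower INSM1 and NEUROG3 by RT-qPCR after MYCL knockdown, and similar results with another MYCL-targeting construct. Those measurements were not examined here. In bulk RNA, fewer cells of a type and less RNA per cell cannot be told apart.

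**Figure D2:**
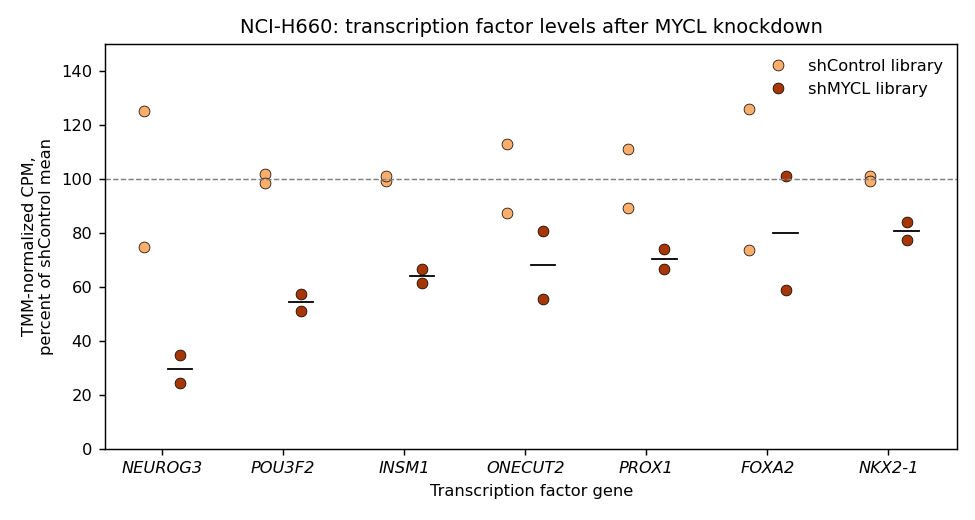
Level of the 7 tested factors in each NCI-H660 library, on the vertical axis as TMM-normalized CPM in percent of the H660 shControl mean of that gene, with genes on the horizontal axis in the order of their fold changes. Points are libraries, short black lines are the H660 shMYCL means and the dashed line is 100%. For FOXA2 the H660 shMYCL and H660 shControl points overlap. How many of all genes separate fully between these groups was not counted.

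NEUROG3, the bHLH factor that starts endocrine differentiation in pancreas and gut, fell furthest. It had 121 and 79 counts in H660 shControl and 21 and 31 in H660 shMYCL. The H660 shMYCL libraries were at 24.2% and 34.7% of the H660 shControl mean, and the H660 shControl libraries themselves at 125% and 74.9%. The log2 fold change was -1.75 (SE 0.34, adjusted p = 0.00156, edgeR's quasi-likelihood test), and it was -1.33 without H660 shControl replicate 1. NEUROG3 lies at chr10:69571698-69573422 on the minus strand of GRCh38. The lncRNA ENSG00000236154 on the opposite strand overlaps 8.91% of its exon sequence and had 9 and 11 counts in H660 shControl and 2 and 9 in H660 shMYCL.

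POU3F2 had 807 and 853 counts in H660 shControl and 410 and 376 in H660 shMYCL. Both H660 shMYCL libraries, at 57.5% and 51.2% of the H660 shControl mean, lay below both H660 shControl libraries. The log2 fold change was -0.88 (SE 0.12, adjusted p = 1.06e-04, edgeR's quasi-likelihood test), and ranged from -0.95 to -0.80 when each library was left out in turn. POU3F2 is a gene of a single exon at chr6:98834574-98839458 on the plus strand.

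INSM1, the zinc-finger factor of endocrine differentiation, had 978 and 1081 counts in H660 shControl and 541 and 605 in H660 shMYCL. The H660 shMYCL libraries were at 61.3% and 66.5% of the H660 shControl mean. The log2 fold change was -0.65 (SE 0.11, adjusted p = 7.72e-04, edgeR's quasi-likelihood test), with a range from -0.70 to -0.58 over the left-out libraries. INSM1 also has a single exon, at chr20:20368104-20370949 on the plus strand.

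PROX1 had 1050 and 924 counts in H660 shControl and 631 and 584 in H660 shMYCL, at 74.2% and 66.6% of the H660 shControl mean. The log2 fold change was -0.51 (SE 0.13, adjusted p = 0.0091, edgeR's quasi-likelihood test). The fold fell below the minimum without H660 shControl replicate 1 (-0.34) and without H660 shMYCL replicate 2 (-0.43), and the call was lost on log2(TPM + 1) (limma, adjusted p = 0.123). PROX1 spans chr1:213983181-214041510 on the plus strand, and PROX1-AS1 on the opposite strand overlaps 1.83% of its exon sequence. PROX1-AS1, chosen for that overlap after its values were seen, had 35 and 32 counts in H660 shControl and 8 and 7 in H660 shMYCL (log2 fold change -1.95, SE 0.50, adjusted p = 0.0103, edgeR's quasi-likelihood test). Whether strand was used in counting is not given in the sources used here, so reads of these 2 genes in the shared bases cannot be told apart.

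ONECUT2 had 1599 and 1354 counts in H660 shControl and 1027 and 728 in H660 shMYCL. The H660 shMYCL libraries were at 80.6% and 55.5% of the H660 shControl mean, and the H660 shControl libraries at 113% and 87.4%, so the groups did not overlap but came close. The log2 fold change was -0.56 (SE 0.16, adjusted p = 0.0161, edgeR's quasi-likelihood test). The call was lost without H660 shControl replicate 1 (-0.36), without H660 shMYCL replicate 2 (-0.31), with DESeq2 (adjusted p = 0.244) and on log2(TPM + 1) (limma, adjusted p = 0.174). Its canonical transcript has 2 exons and 16433 bases, the longest of the 9, and lies within chr18:57435374-57491298 on the plus strand.

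NKX2-1 had 4524 and 4870 counts in H660 shControl and 3389 and 3206 in H660 shMYCL. Both H660 shMYCL libraries, at 84.1% and 77.2% of the H660 shControl mean, lay below both H660 shControl libraries, by a log2 fold change of -0.31 (SE 0.10, adjusted p = 0.0373, edgeR's quasi-likelihood test) that did not reach the fold minimum. NKX2-1 lies at chr14:36516392-36521149 on the minus strand and shares 32.6% of its exon bases with SFTA3 on the same strand and 12.7% with NKX2-1-AS1 on the opposite strand, so its counts are uncertain to that extent. In the same fit SFTA3 had a log2 fold change of -0.11 (SE 0.15), and NKX2-1-AS1 of -0.48 (SE 0.14). FOXA2, at chr20:22580998-22585455, had 64 and 120 counts in H660 shControl and 46 and 81 in H660 shMYCL, and its groups overlapped. Its log2 fold change of -0.33 (SE 0.32, adjusted p = 0.49, edgeR's quasi-likelihood test) was 0.12 without H660 shControl replicate 2 and 0.02 without H660 shMYCL replicate 1.

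NEUROD1, a bHLH factor of late endocrine differentiation, had 6 and 3 counts in H660 shControl and 6 and 2 in H660 shMYCL and was not tested. ISL1, a LIM-homeodomain factor of motor neurons and islet cells, had 0 counts in both H660 shControl libraries and 1 and 2 in H660 shMYCL. A change in either gene was not detectable at this depth.

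**Figure D3:**
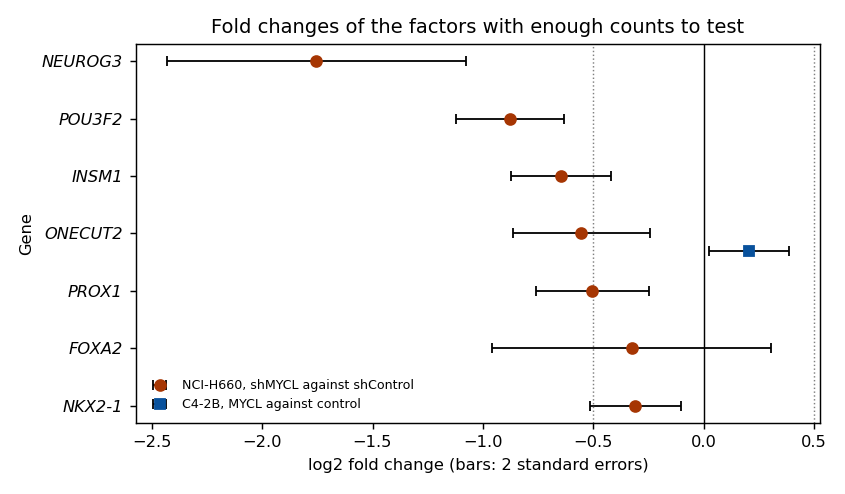
Log2 fold changes, on the horizontal axis, of the 7 factors tested in NCI-H660 (circles, H660 shMYCL against H660 shControl) and of ONECUT2 in C4-2B (square, C4-2B MYCL against C4-2B control), with genes on the vertical axis. Bars are 2 standard errors and dotted lines mark the fold minimum of 0.5. NEUROG3 lies furthest from 0 and the bar of FOXA2 crosses 0. The bar of ONECUT2 in C4-2B, from 0.02 to 0.39, does not cross 0, although ONECUT2 did not pass the test there.

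Stretches of 250 bases before the transcript start were compared for the factors called lower that are listed in RefSeq's promoter table (GRCh38.p14) with a start outside their own exons, to show whether they share the E-box letters that bHLH and MYC family proteins are known to bind. Capitals mark the letters CANNTG, searched on both strands with overlapping matches allowed. NEUROG3 is at chr10:69573423-69573672 (minus strand), POU3F2 at chr6:98834324-98834573 (plus strand) and ONECUT2 at chr18:57435124-57435373 (plus strand).
NEUROG3: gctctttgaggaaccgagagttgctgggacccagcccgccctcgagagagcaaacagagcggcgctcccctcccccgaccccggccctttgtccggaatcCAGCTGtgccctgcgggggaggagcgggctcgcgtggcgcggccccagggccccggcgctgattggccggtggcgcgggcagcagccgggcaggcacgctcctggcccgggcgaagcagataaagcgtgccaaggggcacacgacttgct
POU3F2: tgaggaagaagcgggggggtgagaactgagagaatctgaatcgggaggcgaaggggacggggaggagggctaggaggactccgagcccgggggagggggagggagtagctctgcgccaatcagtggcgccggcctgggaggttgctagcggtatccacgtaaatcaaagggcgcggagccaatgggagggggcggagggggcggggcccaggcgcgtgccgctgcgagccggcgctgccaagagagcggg
ONECUT2: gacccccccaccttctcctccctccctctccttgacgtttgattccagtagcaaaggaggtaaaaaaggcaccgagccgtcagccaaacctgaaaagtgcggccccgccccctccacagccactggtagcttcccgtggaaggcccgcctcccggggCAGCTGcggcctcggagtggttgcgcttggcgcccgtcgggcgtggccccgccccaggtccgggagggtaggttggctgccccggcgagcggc
NEUROG3 holds 1 match, starting 150 bases before its start, and ONECUT2 holds 1, starting 93 bases before, while POU3F2 holds none in this window. CANNTG occurs in 61.8% of the 35116 promoters of the same length in the table. The palindrome CACGTG, a part of CANNTG, occurs in 6.34% of them and in none of these 3 windows. These matches describe letters, not binding.

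MYCL overexpression in C4-2B addressed whether the factors change in the adenocarcinoma line. ONECUT2 was the only factor with enough counts to test, and it did not pass. It had 1224 and 871 counts in C4-2B control and 838 and 701 in C4-2B MYCL, or 37.62 and 36.59 against 45.45 and 40.09 CPM (counts scaled to library size, which was larger in C4-2B control). The log2 fold change was 0.21 (SE 0.09, adjusted p = 0.112 and unadjusted p = 0.051, edgeR's quasi-likelihood test). In C4-2B, edgeR and DESeq2 each called 0 of the 1 factor tested, and its unadjusted p was not under 0.05 in either tool. Over all 16866 genes tested, edgeR called 19.9% in either direction. With 1 factor tested, this share cannot be compared with the factors as a group.

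INSM1, FOXA2 and NEUROD1 had 0 counts in both C4-2B MYCL libraries. NEUROG3 had 1 and 0, PROX1 had 0 and 3, POU3F2 had 3 and 2 and NKX2-1 had 4 and 1. These counts overlapped with or lay within the floor of 3 counts of the C4-2B control libraries. ISL1 had 1 and 0 counts in C4-2B control and 4 and 7 in C4-2B MYCL, a ratio of 17.2 (95% interval 2.5 to 739, counting error only). Its levels were 0.05 and 0 TPM in C4-2B control and 0.11 and 0.19 TPM in C4-2B MYCL. The C4-2B control counts lie within the floor of 3 counts, so the size of this ratio is not fixed. ISL1 was too low for the test, so this ratio was not tested between libraries.

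How far high MYCL moved each factor was also compared between the lines, as C4-2B MYCL minus C4-2B control and H660 shControl minus H660 shMYCL. For ONECUT2, the only factor measured in both lines, the C4-2B effect minus the NCI-H660 effect was -0.35 on the log2 scale (SE 0.22, adjusted p = 0.306, edgeR's quasi-likelihood test), with an interval of 2 standard errors from -0.80 to 0.10. In that fit edgeR called 17.9% of the 19605 genes tested in either direction. The other factors had too few counts in C4-2B for this comparison.

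Genes related to the factors were read from 4 lists, of paralogs, endocrine cascade factors, partners and antagonists, and neuroendocrine product genes. Each list is described by its counts beside the shares of all genes given above. For C4-2B that share is 19.9% of 16866 genes in either direction. Its split into higher and lower is not given, so the directions of the C4-2B counts have no share beside them. Genes were called as before, with edgeR's quasi-likelihood test, and the shares belong to those calls. DESeq2 called 2060 of 16980 genes in NCI-H660 and 2954 of 16866 in C4-2B, in either direction. No share of all genes is given at unadjusted p under 0.05, so list counts at that threshold cannot be set against all genes.

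Most of the paralogs were too low to test. In NCI-H660, 7 of 21 were tested, 1 was called higher and 0 lower, with a median log2 fold change of 0.32. By unadjusted p under 0.05, 2 were higher and 0 lower, and DESeq2 called 1 higher and 0 lower. NEUROD4, a neuronal bHLH relative of NEUROD1, rose from 38 and 43 counts to 71 and 78 (log2 fold change 1.08, SE 0.29, adjusted p = 0.0137), and lost the call without H660 shMYCL replicate 2 (adjusted p = 0.0615), in the joint fit of all conditions (0.0612) and on log2(TPM + 1) (limma, adjusted p = 0.119), where 0 paralogs were called. ONECUT1, the paralog of ONECUT2, had 108 and 96 counts against 90 and 110 (0.17, SE 0.23), and FOXA1, the luminal relative of FOXA2, had 4786 and 4646 against 3550 and 3620 (-0.20, SE 0.11). In C4-2B, 4 paralogs were tested, of which 1 was called higher and 0 lower. By unadjusted p under 0.05, 1 was higher and 1 lower there, and DESeq2 called 1 higher and 0 lower. On log2(TPM + 1), limma tested 2 and called 0 higher and 1 lower, which was FOXA1. In edgeR FOXA1 was lower in C4-2B MYCL by less than the fold minimum (259.3 and 259.8 CPM against 196.3 and 196.3, log2 fold change -0.40, SE 0.07, adjusted p = 0.002). ISL2, the relative of ISL1, had 1.41 and 0.46 CPM in C4-2B control and 2.39 and 2.86 in C4-2B MYCL (1.44, SE 0.48, adjusted p = 0.0464). The call was lost without C4-2B control replicate 2 (0.88, adjusted p = 0.155) and without C4-2B MYCL replicate 2 (1.31, adjusted p = 0.0899), as well as on log2(TPM + 1) (limma, adjusted p = 0.0622), and the log2 fold change was 2.48 without C4-2B control replicate 1.

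Among the endocrine cascade factors, 7 of 15 were tested in NCI-H660, 1 was called higher and 1 lower. MNX1, a homeodomain factor of motor neurons and pancreas, fell from 118 and 154 counts to 65 and 78 (log2 fold change -0.72, SE 0.23, adjusted p = 0.0282), a call lost without H660 shControl replicate 2 (-0.59), without H660 shMYCL replicate 1 (-0.61), and with DESeq2 (adjusted p = 0.1). PAX6, an eye and islet factor, was called higher from 0 and 2 counts to 12 and 18, a ratio of 17.3 (95% interval 4.38 to 149, counting error only), and lost the call without H660 shControl replicate 1 (log2 fold change 3.08 instead of 3.94, adjusted p = 0.0636). Without H660 shControl replicate 2 the control is at 0 counts and the fitted 6.96 is not interpretable. PAX6 passed the filter on low counts only through the H660 shMYCL libraries, so once tested it had to be higher. In C4-2B, 5 were tested, 1 was called higher and 0 lower. By unadjusted p under 0.05, 2 were higher and 0 lower there, and DESeq2 called 1 higher and 0 lower. MNX1 rose from 4.27 and 3.44 CPM to 10.03 and 9.38 (1.32, SE 0.20, adjusted p = 0.00115). MNX1 thus was higher in the libraries with more MYCL in both lines.

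The partners and antagonists include the E proteins that bHLH factors pair with, the ID proteins that sequester E proteins, and Notch effectors that repress neurogenic factors. In NCI-H660, 19 of 21 were tested, 1 was called higher and 4 lower. ID2 fell from 4250 and 3853 counts to 1875 and 1775 (log2 fold change -0.96, SE 0.11, adjusted p = 3.18e-05), and ID1 from 1406 and 1524 to 751 and 609 (-0.91, SE 0.12, adjusted p = 8.68e-05). LMO3, a LIM-only cofactor, fell from 1326 and 1062 counts to 512 and 600 (-0.91, SE 0.14). HES1, a Notch effector, fell from 581 and 625 counts to 311 and 307 (-0.77, SE 0.12), while HEY1, of the same family, rose from 184 and 229 to 289 and 309 (0.74, SE 0.15). REST, the repressor of neuronal genes, had 688 and 819 counts against 653 and 670 (0.01, SE 0.12, adjusted p = 0.948).

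In C4-2B, 18 partners and antagonists were tested, 3 were called higher and 2 lower. RCOR2, a corepressor subunit, rose from 1.6 and 0.84 CPM to 4.77 and 3.83 (log2 fold change 1.79, SE 0.36). HES1 rose from 13.58 and 15.84 CPM to 25.98 and 23.05 (0.74, SE 0.12), the opposite of its direction after knockdown in NCI-H660. LMO4, a LIM-only cofactor, rose from 50.65 and 55.53 CPM to 84.12 and 88.53 (0.70, SE 0.08), and by 0.47, under the fold minimum, on log2(TPM + 1). ID1 fell from 13.65 and 15.71 CPM to 6.89 and 7.55 (-1.02, SE 0.14), so that it was lower after either perturbation. TCF4, an E protein, fell from 3.10 and 4.37 CPM to 1.84 and 1.60 (-1.11, SE 0.31). The TCF4 call was lost without C4-2B control replicate 2 (-0.85, adjusted p = 0.128).

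The product genes are the granule, synaptic and hormone genes that neuroendocrine cells express. In NCI-H660, 21 of 22 were tested, 1 was called higher and 0 lower, with a median log2 fold change of -0.03. By unadjusted p under 0.05, 4 were higher and 5 lower, and DESeq2 called 1 higher and 0 lower. ELAVL3, a neuronal RNA-binding protein, rose from 1149 and 1354 counts to 1591 and 1699 (0.60, SE 0.10, adjusted p = 7.72e-04). CHGA, the granule protein chromogranin A, had 2210 and 2531 counts against 1806 and 2030, and SYP, synaptophysin, had 1443 and 1814 against 1412 and 1787. DLL3, a Notch ligand, was just under the fold minimum at -0.50 (SE 0.13, adjusted p = 0.0122). In C4-2B, 6 were tested, 3 were called higher and 0 lower. By unadjusted p under 0.05, 3 were higher and 0 lower, and DESeq2 called the same numbers. ENO2, neuron-specific enolase and a glycolytic enzyme, rose from 13.46 and 14.41 CPM to 60.8 and 59.08 (2.11, SE 0.09, adjusted p = 3.91e-06). CALCA, the calcitonin gene, rose from 1 and 0 counts to 21 and 26, a ratio of 73.4 (95% interval 12.5 to 2.96e+03, counting error only). CALCA passed the filter on low counts only through the C4-2B MYCL libraries, so once tested it had to be higher. Its log2 fold change of 5.84 was 5.18 without C4-2B control replicate 2, and 7.71 without C4-2B control replicate 1, which leaves a control at 0 counts, so that its size is not fixed by these data. SYT4, a synaptotagmin, rose from 6.92 and 8.82 CPM to 10.52 and 13.21 (0.60, SE 0.18, adjusted p = 0.0294). The SYT4 call was lost without C4-2B control replicate 1 (0.42) and without C4-2B MYCL replicate 2 (0.42).

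**Figure D4:**
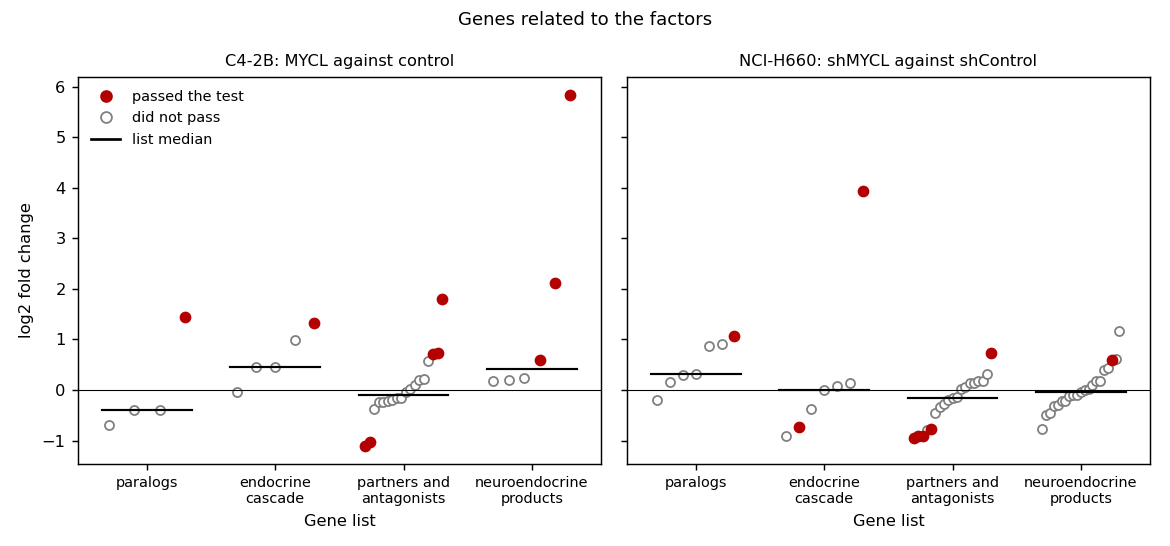
Log2 fold changes, on the vertical axis, of the tested genes of the 4 lists in C4-2B MYCL against C4-2B control (left) and H660 shMYCL against H660 shControl (right), with lists on the horizontal axis. Filled points passed the test, open points did not and black lines are list medians; in NCI-H660 the product genes centre near 0 with 1 of 21 called, and the partners and antagonists hold 4 called lower.

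The genes nearest in pattern to each factor called in NCI-H660 were ranked among 13030 genes by the root mean square distance between the 4 group means of log2 CPM, each gene centred on its own mean. For INSM1 they were DLGAP1 (distance 0.058), PXMP4 (0.062) and COL21A1 (0.120). For NEUROG3 they were SLITRK5 (0.274), CYP4X1 (0.308) and ATOH8 (0.325), and for POU3F2 they were BCL2 (0.146), NYNRIN (0.151) and LINC00654 (0.167). For PROX1, CRISPLD1 (0.105) and ATP8A2 (0.118) were among the 3 nearest. ONECUT2, which unlike the others was measured in C4-2B, had LNPK (0.018), MYO9A (0.044) and SCPEP1 (0.045). INSM1, NEUROG3, POU3F2 and PROX1 had 0 to 5 counts in each C4-2B library, so their C4-2B values lie at or near the floor. The 3 neighbours of INSM1 had the same value in both C4-2B groups (-4.40, -4.35 and -4.48 after centring). For these factors, nearness therefore reflects mainly low counts in C4-2B together with the NCI-H660 values. With 4 group means that share libraries, these distances are a description only.

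Markers of other cell types were also read. Of the stromal markers, COL3A1 and DCN had 0 counts in all NCI-H660 libraries, and the summed level of the 4 was 37.1 to 42.6 TPM in H660 shControl and 25.1 to 26.2 TPM in H660 shMYCL, most of it from COL1A2 (39.75 and 34.65 TPM in H660 shControl, 22.75 and 22.35 TPM in H660 shMYCL), which was near the level of INSM1. The neuroendocrine marker sum was 650.5 to 675.2 TPM in H660 shControl and 681 to 783.2 TPM in H660 shMYCL, but its 8 genes differed in direction. CHGB (mean 123.1 against 167.3 TPM) and SCG3 (157.6 against 205.1 TPM) were higher in H660 shMYCL, while DLL3 (22.7 against 16.1 TPM) and SNAP25 (42.0 against 30.2 TPM) were lower, each with an adjusted p under 0.05 in edgeR's quasi-likelihood test and a fold under the minimum. Of 3 immune markers, CD3E and PTPRC had 0 counts in both H660 shControl and both C4-2B control libraries, and the summed level was 8.3 to 10.8 TPM in C4-2B control and 23.9 to 25.7 TPM in C4-2B MYCL, most of it from CD68. Of the basal markers KRT5 and KRT14, both had 0 counts in H660 shControl and their sum was 0.21 to 1.37 TPM in C4-2B. The part of these levels in the results was not tested.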

How the data were processed

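Poly(A) RNA sequencing of 4 conditions with 2 libraries each was used as deposited. The authors deposited gene-level estimated counts without normalization between libraries, of which 22.4% of nonzero values were not whole (tolerance 0.01), and these were rounded to whole numbers. The deposited TPM values were made by the authors by dividing counts by gene length from Ensembl annotations and scaling. The deposited TPM values cover only the first 65535 of the 78691 genes with counts. Tests on TPM, their adjusted p-values and their counts over all genes rest on that smaller set. The labels name hg38, and the aligner, counting tool and strand setting are not given in the sources used here. Estimated counts were tested in edgeR 4.0.16 (R 4.3.3) with TMM normalization, filterByExpr, the quasi-likelihood test and Benjamini-Hochberg adjustment over all genes tested, for each line on its own, and in 1 fit of all conditions for comparisons between lines. Calls required adjusted p below 0.05 with a log2 fold change of 0.5 or more in either direction. Standard errors (SE) were the absolute log2 fold change divided by the square root of the test's F statistic. With 2 libraries per condition, 2 of them are not a 95% interval. A count of 0 was read as up to 3 counts, and ratios have exact 95% binomial intervals. An exact permutation test of 2 against 2 libraries cannot go below p = 0.33 and was not used. The code was tested on simulated data.

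The 9 genes, the lists and the markers were chosen with earlier results of these data known. Named genes were the 9 factors, MYCL, the called genes of each list (at most 4 in each direction) and the 3 genes nearest in pattern to each factor called in NCI-H660. Other named genes were chosen after their values were seen. Some genes are not reported here and were left out of the lists' counts. Positions and exon overlaps are from GENCODE 44 (GRCh38). Alternatives were DESeq2 1.42.0, other size factors and filters, limma 3.58.1 on log2(TPM + 1) and log2(TPM + 0.1), a replicate block, other fold minimums, a joint fit and leaving out each library.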

Additional observations from a re-analysis of the deposited data

Results flagged for a closer look

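For 6 named genes the change from low to high MYCL was not the same in C4-2B and NCI-H660 (edgeR's quasi-likelihood test of the interaction). Over all 19605 genes tested, 17.9% were called in this comparison, in either direction. Among the list genes, 1 paralog was also called higher and 1 lower of 10 tested. The test called 1 product gene lower of 21 tested, which is not among these 6 either. The size of the MYCL change and the construct also differed between the lines, and their part was not tested. Of the 9 factors only ONECUT2 had the counts in both lines for this test, and it did not pass. MYCL, the targeted gene, differed by 5.19 on the log2 scale, since overexpression raised it by 8.26 and the knockdown lowered it by 3.06. CALCA, the calcitonin gene, differed by 5.57 (adjusted p = 2.12e-04), from 1 count in the C4-2B control libraries together. ENO2, neuron-specific enolase, differed by 2.00 (SE 0.17), with an effect of 2.11 in C4-2B and 0.10 in NCI-H660. RCOR2, a corepressor subunit, differed by 1.44 (SE 0.35), with effects of 1.79 and 0.34. ID1, an inhibitor of bHLH factors, differed by -1.93 (SE 0.19), as it was lower with high MYCL in C4-2B (-1.02) and higher with high MYCL in NCI-H660 (0.91). ID2, of the same family, differed by -1.33 (SE 0.16), with -0.37 in C4-2B, which was not called, and 0.96 in NCI-H660.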

How the results depend on the processing

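With knockdown in NCI-H660, 5 factors were called lower; 3 were called on log2(TPM + 1), on log2(TPM + 0.1) and, chosen after seeing the data, on log2(TPM + 1) with libraries centred on their medians, 0 on log2(TPM + 1) without a filter on low values, 1 at a log2 fold minimum of 1, and 3 to 5 when each library was left out in turn. The counts over all genes in NCI-H660 were 1702, 1600, 1692, 1 and 1022 in the same order, and 4204 without a fold minimum. In C4-2B they were 1940 on log2(TPM + 1) without a filter, 5895 without a fold minimum and 1411 at 1. Between the control groups, at least 10 counts in every library left 1 factor called and 8512 genes. For the difference between lines, 3 factors at or near 0 counts in C4-2B were called on log2(TPM + 1), and 1898 genes without its filter and 1666 at a fold minimum of 1. The change without a filter or with fewer libraries goes with the genes and samples tested; other causes were not tested. FOXA2 in NCI-H660 was reversed without H660 shControl replicate 2 and without H660 shMYCL replicate 1, with a range from -0.76 to 0.12 over left-out libraries. On log2(TPM + 1) the median of all genes was -0.14 in C4-2B. A condition left with 1 library was assumed to vary like the others. Replicate numbers are shared between conditions but same-numbered libraries did not deviate together (r = 0.058 in C4-2B and 0.044 in NCI-H660 across 13030 genes); with a replicate block 5 factors and 2949 genes were called in NCI-H660, and 0 factors and 3536 genes in C4-2B. Depth limits NEUROD1 and ISL1 in both lines and all factors but ONECUT2 in C4-2B.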
